A study of Mus musculus with 6 samples.

Results

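The genes described here encode subunits of 3 kinds of cation channel, and their transcripts were read in skin endothelial cells of mice, isolated by FACS. They are Kcnma1, the pore of the BK potassium channel, its gamma subunits Lrrc26, Lrrc38, Lrrc52 and Lrrc55, the sodium leak channel pore Nalcn with its partners Fam155a, Unc79 and Unc80, and the voltage-gated sodium channel gene Scn3a. Members were taken by symbol, through the transcript accession that each array probe carries. All 10 were found, on 14 of the 55681 probes that are not controls, and the array as a whole carried 20018 named genes. The 10 were chosen by symbol with the measured log2 differences of this same knockout comparison in view, so their values are given as a description and without a p-value.

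The samples were 3 of APJ KO genotype and 3 of wildtype genotype, all of strain C57Bl/6J. APJ is the receptor for the peptide apelin and is encoded by Aplnr. The comparison asks how loss of the receptor goes with transcript levels in skin endothelium. No treatment followed the sort, and each sample was hybridised to 1 one-colour Agilent expression array. How the knockout allele was made, the markers of the sort and the age of the animals are not given in the labels used here, although the names of the scanner files carry an embryonic stage. The labels number a mouse for each sample without saying whether animals were pooled, so every p-value below measures only the spread between these 6 samples.

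Levels are log2 signals relative to the 75th percentile of intensity on the same array, which lay between 260.5 and 399.7 on the knockout arrays and between 251.8 and 377.6 on the wild-type arrays. There were 2 slides, each scanned on 1 day. Slide 1 held replicates 1 and 2 of both genotypes and slide 2 held replicate 3 of both. Of 8 endothelial markers, 8 were well above background on every array of both genotypes, by the scanner software's own call, and their summed linear signal was 316.2 to 337.7 in the knockout and 311.4 to 326.1 in wild type, in multiples of the 75th percentile. Aplnr read 1.89, 1.71 and 2.26 in the knockout, against 3.35, 3.77 and 3.82 in wild type, so all knockout arrays lay below all wild-type arrays. Whether this probe lies in the altered stretch of the gene is not known here. The log2 difference of Aplnr, knockout minus wild type, was -1.69 ± 0.19 (SE, limma adjusted p = 0.0236). It was no longer past the threshold when same-numbered samples were paired (limma adjusted p = 0.0786), nor without APJ knockout replicate 1 or 2 or without wild type replicate 1, 2 or 3 (adjusted p 0.0504 to 0.147).

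BK channels open on depolarisation and on a rise in intracellular calcium, and let potassium leave the cell. Gamma subunits are single-span membrane proteins with leucine-rich repeats that shift the voltage at which BK channels open. The NALCN channel carries a steady inward sodium current that brings the resting potential closer to threshold in neurons, and it works in a complex with FAM155A, also called NALF1, and the large proteins UNC79 and UNC80. SCN3A is a fast voltage-gated sodium channel known best from embryonic neurons. In endothelium the membrane potential sets the driving force for calcium entry.

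Lrrc55 was far dimmer in the knockout than in wild type. Its signal was -6.02, -6.47 and -4.87 in APJ knockout replicates 1 to 3, against -2.12, -1.68 and -1.80 in wild type replicates 1 to 3 (probe A_52_P395280, chromosome 2). The groups did not overlap and were separated by 2.75 on the log2 scale. The signal averaged -5.78 ± 0.82 in the knockout and -1.86 ± 0.23 in wild type (SD, n = 3 each). The difference of the signals as read was -3.92 ± 0.39 (SE). Its size is not settled, because 1 of 3 knockout arrays was well above background, against 3 of 3 wild-type arrays. It was -2.81 with dim spots raised to the lowest well-above-background signal of their array, and -1.14 with the normexp background correction. The difference was -4.34 within slide 1 and -3.07 within slide 2. On the raw scale, the median of the spot's pixels was 30, 28 and 37 in the knockout, over local backgrounds of 26, 24 and 28. In wild type it was 90, 99.5 and 123, over 27, 23 and 27. In sorted cells measured in bulk, fewer cells carrying a transcript and less transcript per cell cannot be told apart.

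Lrrc55 is the immediate neighbour of Aplnr, with 0 named protein-coding genes between them in the reference gene order. Of the 6 nearest named protein-coding genes on each side of Lrrc55, 5 were tested and 1, Aplnr, passed. Tnks1bp1, which encodes a tankyrase-binding protein and flanks Aplnr on its other side, had a log2 signal of 1.14 in the knockout and 1.72 in wild type. Its difference of -0.59 ± 0.09 did not pass (limma adjusted p = 0.0526), but passed with the slide as a block (adjusted p = 0.0353). P2rx3, an ATP-gated cation channel of sensory neurons, differed by -0.24 ± 0.09 (limma adjusted p = 0.548), and Ssrp1, a chromatin factor, by -0.07 ± 0.09. Prg2, a granule protein of eosinophils, had a difference of 0.80 ± 0.63 (limma adjusted p = 1.00). The unadjusted limma p lay under 0.05 for Aplnr (6.57e-05), Tnks1bp1 (0.000353) and P2rx3 (0.0362), all lower in the knockout. It did not for Ssrp1 (0.481) and Prg2 (0.249). The share of everything tested under that threshold was not counted. The olfactory receptor genes that follow Lrrc55 on its far side, Olfr987 to Olfr995, did not reach the detection filter. No difference could therefore be measured on the far side of Lrrc55. Any bearing of the altered Aplnr allele on its neighbours was not tested.

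**Figure D1:**
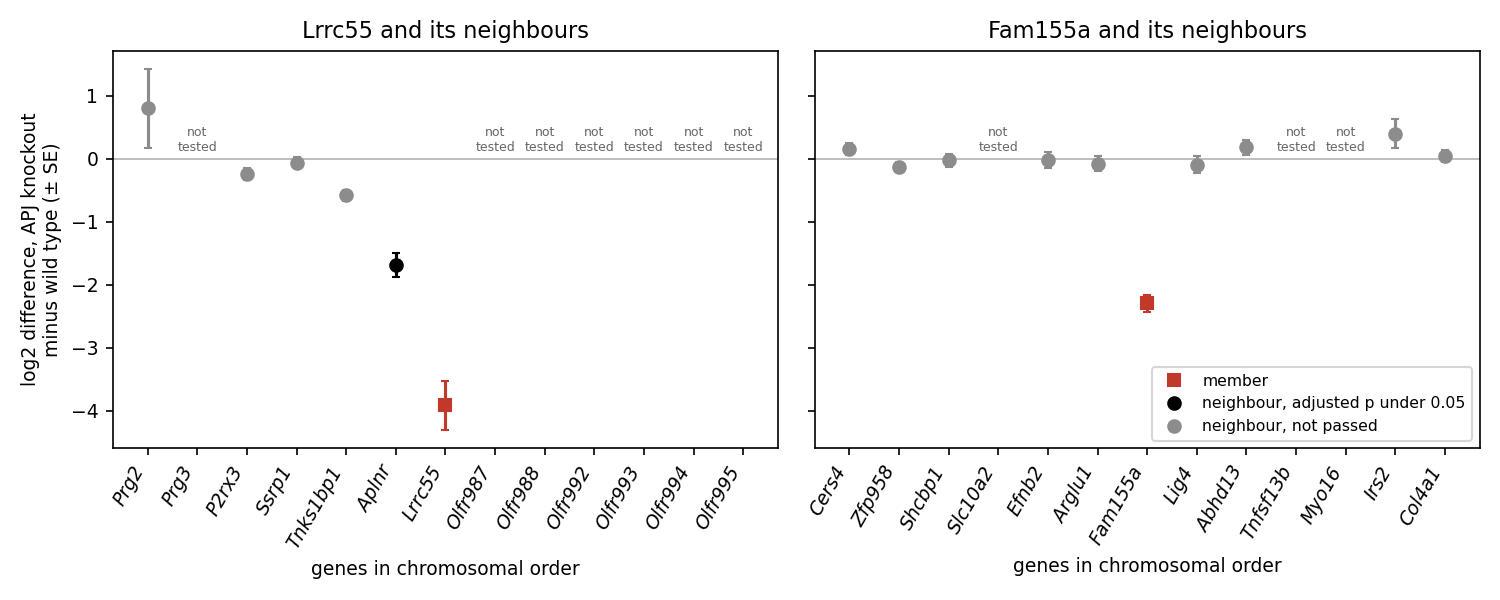
Log2 difference between APJ knockout and wild type (± SE, vertical axis) for Lrrc55 and Fam155a (squares) and for the 6 nearest named protein-coding genes on each side, in chromosomal order (horizontal axis, not to scale). Black circles passed at an adjusted p of 0.05 and grey circles did not. Aplnr at -1.69 is the only neighbour that passed, and the tested neighbours of Fam155a lie between -0.13 and 0.40.

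Among the other gamma subunits, Lrrc38 was well above background on all 6 arrays and Lrrc26 and Lrrc52 on 0 of 6. Lrrc38 read -0.53, -0.20 and -0.93 in the knockout, against -0.38, -0.22 and -0.91 in wild type (chromosome 4). The genotypes overlapped and the difference was -0.05 ± 0.25 (SE, n = 3 per group). Replicate 3 of both genotypes, on slide 2, was lower than all 4 arrays of slide 1. Lrrc26, known as the gamma subunit of secretory epithelia, ranged from -6.67 to -5.46 in the knockout and from -6.63 to -5.15 in wild type. A weaker call of the software, a signal significantly above local background, was given for Lrrc26 on 1 of 3 knockout arrays and 3 of 3 wild-type arrays. Lrrc52, known from testis, where it partners the sperm potassium channel, ranged from -7.18 to -6.45 in the knockout and from -6.68 to -6.26 in wild type. No ratio is given for these genes, since neither genotype was well above background. A dim probe shows only that no signal well above background was read with it on these arrays.

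The pore gene Kcnma1 on chromosome 14 was at the edge of detection. Its brighter probe read -5.30, -4.64 and -5.97 in the knockout, against -4.94, -5.06 and -4.76 in wild type. It was well above background on 0 of 3 knockout arrays and 1 of 3 wild-type arrays, although the weaker call was given on all 6. Its second probe read between -7.57 and -6.20 in the knockout and between -7.51 and -6.69 in wild type, and no array had it well above background. The genotypes overlapped for both probes. Lrrc55 was thus detected on all wild-type arrays, and the pore that its protein can assist on 1 of them.

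Promoter sequences of the gamma subunit genes that were clearly detected, and of Unc79, are shown for reference, since the signal of the first separated the genotypes and those of the others overlapped. Of the 10 genes, 8 have an entry in the RefSeq promoter table (GRCm38.p6), which gives 250 bases before to 50 after the start of transcription. Lrrc55 lies at chr2:85198701-85199000 on the minus strand, Lrrc38 at chr4:143349500-143349799 on the plus strand and Unc79 at chr12:102948609-102948908 on the plus strand. Sequences run 5′ to 3′, and capitals mark GGAA or, for the other strand, TTCC, the core recognised by ETS factors, a family with members that drive many endothelial genes.
Lrrc55: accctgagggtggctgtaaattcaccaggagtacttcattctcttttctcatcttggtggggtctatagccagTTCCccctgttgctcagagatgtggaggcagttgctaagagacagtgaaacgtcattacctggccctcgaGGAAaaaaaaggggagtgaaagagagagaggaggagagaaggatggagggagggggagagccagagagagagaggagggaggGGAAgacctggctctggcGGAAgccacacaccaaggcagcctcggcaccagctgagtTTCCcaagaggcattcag
Lrrc38: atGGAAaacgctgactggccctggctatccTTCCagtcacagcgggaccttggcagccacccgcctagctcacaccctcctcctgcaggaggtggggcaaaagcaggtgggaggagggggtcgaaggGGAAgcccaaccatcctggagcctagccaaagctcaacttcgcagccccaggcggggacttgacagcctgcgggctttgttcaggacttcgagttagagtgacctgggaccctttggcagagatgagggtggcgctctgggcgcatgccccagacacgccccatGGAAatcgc
Unc79: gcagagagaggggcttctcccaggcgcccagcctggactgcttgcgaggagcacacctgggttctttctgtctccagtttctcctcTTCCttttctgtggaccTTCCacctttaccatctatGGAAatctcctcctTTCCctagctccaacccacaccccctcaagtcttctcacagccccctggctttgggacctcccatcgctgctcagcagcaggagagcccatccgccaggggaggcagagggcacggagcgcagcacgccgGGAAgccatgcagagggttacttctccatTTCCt
The core occurred 5 times in the Lrrc55 promoter, 4 times in that of Lrrc38 and 6 times in that of Unc79. At least 1 was present in 95.98% of the 32851 promoters in the table, with a median of 3, and overlapping matches were counted. None of the 3 windows held a GC box (GGGCGG or CCGCCC), which 35.7% of promoters held, or a TATA box (TATAAA or TTTATA), which 13.6% held. The CG dinucleotide occurred 4 times for Lrrc55, 12 times for Lrrc38 and 8 times for Unc79, against a median of 7. The Kcnma1 promoter, by contrast, held 36 CG and 3 GC boxes. These counts describe the letters of the windows only.

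Fam155a, the NALCN partner on chromosome 8, was the other member with a much lower signal in the knockout. Its probe (A_51_P304478) read -4.86, -4.94 and -5.12 in the knockout, against -2.53, -2.59 and -2.90 in wild type. The groups were separated by 1.96, and arrays within a genotype lay close together. The signal averaged -4.97 ± 0.13 in the knockout and -2.67 ± 0.20 in wild type (SD, n = 3 each), a difference of -2.30 ± 0.13 (SE) of the signals as read. It was well above background on 0 of 3 knockout arrays and 3 of 3 wild-type arrays, so the knockout level and the size of the difference are not settled. With dim spots raised as above the difference was -2.09, and with normexp -0.60. Against the higher of its own signal and the lowest well-above-background signal of each knockout array, Fam155a was 4.25-fold lower. This ratio is not a lower limit, since it leaves out the spread between arrays and normexp gave a smaller difference. The signal was still significantly above local background on 3 of 3 knockout arrays, by the weaker call. The spot median was 44, 36 and 39.5 in the knockout, over local backgrounds of 29, 26 and 32, against 79, 65 and 72 in wild type, over 30, 30 and 27. The difference was -2.34 within slide 1 and -2.22 within slide 2.

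No gene beside Fam155a passed. Of its 6 nearest named protein-coding genes on each side, 9 were tested and 0 passed by limma, with 0 at an unadjusted p under 0.05, and their differences lay between -0.13 and 0.40. They include Efnb2, the arterial ephrin ligand (-0.02 ± 0.12), Col4a1, a basement membrane collagen (0.05 ± 0.10), and Irs2, an insulin receptor substrate (0.40 ± 0.23). The smallest unadjusted p among them were those of Irs2, Cers4, a ceramide synthase (0.16 ± 0.10), and the zinc finger gene Zfp958 (-0.13 ± 0.08).

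The remaining leak channel genes were either dim or had overlapping genotypes. Unc79 on chromosome 12 read -3.82, -3.65 and -3.28 in the knockout, against -3.23, -3.49 and -3.36 in wild type, and was well above background on all 6 arrays. The genotypes overlapped. The difference of -0.22 ± 0.16 (SE, n = 3 in each) was -0.37 within slide 1 and 0.08 within slide 2. Nalcn itself, on chromosome 14, never reached the well-above-background call. It ranged from -7.29 to -6.57 in the knockout and from -7.23 to -6.40 in wild type, and the weaker call was given on 0 of 6 arrays. Unc80, on chromosome 1, was not well above background with either of its 2 probes, whose signals lay between -7.45 and -5.79 in the knockout and between -7.27 and -6.46 in wild type. Of the 4 leak channel genes among the 10, Fam155a and Unc79 were well above background on all wild-type arrays, and the pore gene on none. Nalf2, a paralogue of Fam155a that is no member of the 10, read -2.46 ± 0.21 in the knockout and -2.47 ± 0.37 in wild type (SD, n = 3 each). These levels differed by 0.01 ± 0.20 (limma adjusted p = 1.00).

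**Figure D2:**
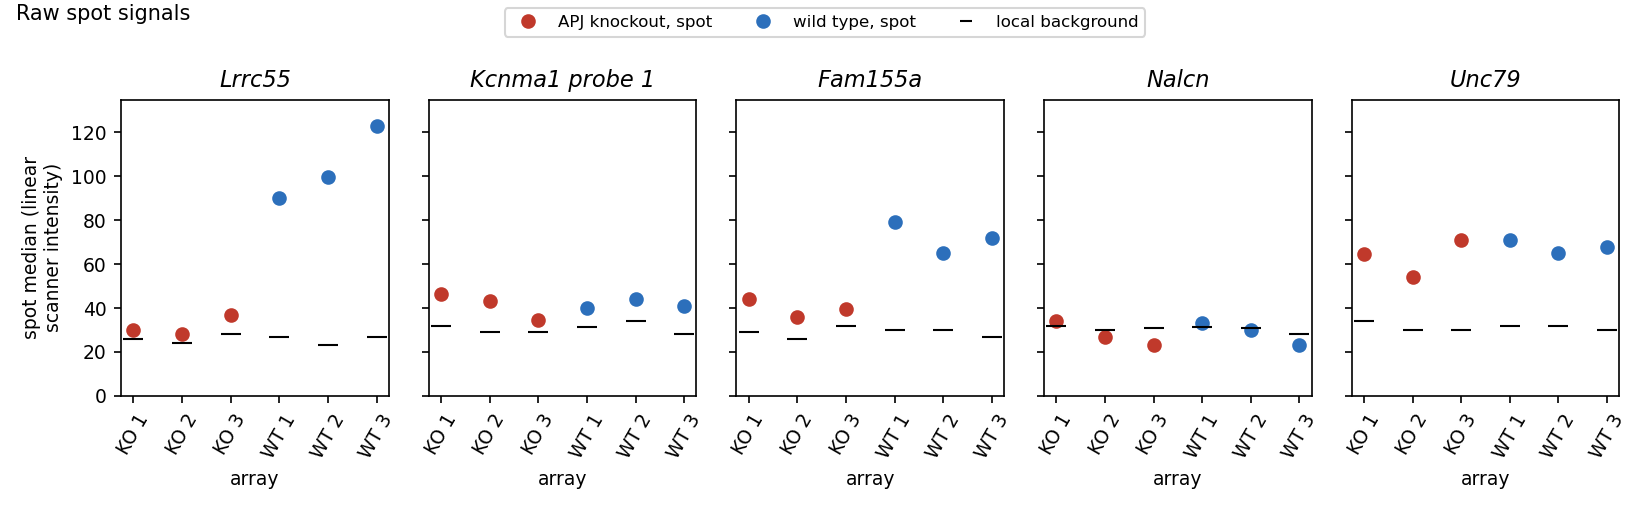
Raw spot medians (linear scanner intensity, vertical axis) on each of the 6 arrays (horizontal axis) for a BK gamma subunit and the BK pore (Lrrc55, Kcnma1) and for leak channel genes (Fam155a, Nalcn, Unc79). Points are the spot, red for APJ knockout and blue for wild type, and black dashes the local background beside it. For Lrrc55 the wild-type spots lie between 90 and 123 and the knockout spots between 28 and 37, and Nalcn sits near its background on all arrays.

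Scn3a, on chromosome 2, was higher in the knockout. Its brightest probe (A_55_P2119772) read 1.08, 0.73 and 0.42 in the knockout, against -0.71, -0.58 and -0.82 in wild type. All knockout arrays lay above all wild-type arrays, by a gap of 1.00. The signal averaged 0.75 ± 0.33 in the knockout and -0.70 ± 0.12 in wild type (SD, n = 3 each), a difference of 1.45 ± 0.18 (SE), or 2.73-fold. A second probe read 0.57, 0.29 and 0.35 in the knockout, against -1.16, -1.32 and -0.68 in wild type, a difference of 1.46 ± 0.18 or 2.75-fold. The third probe (A_51_P398037) stayed below the well-above-background call on all 6. Its weaker call was given on 3 of 3 knockout arrays and 0 of 3 wild-type arrays, with signals of -6.34, -4.49 and -5.55 in the knockout and -6.63, -6.24 and -7.08 in wild type. Where the 3 probes lie along the transcript is not used here. Within slide 1 the brightest probe differed by 1.55 and within slide 2 by 1.25.

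Scn3a sits in a cluster of sodium channel genes, and its measured relatives there did not pass. Scn2a, its immediate neighbour, read -2.86, -2.87 and -2.99 in the knockout, against -2.96, -2.80 and -2.76 in wild type, a difference of -0.07 ± 0.10 (limma adjusted p = 1.00). Scn1a, from the same cluster, differed by 0.05 ± 0.14 (limma adjusted p = 1.00). Both encode voltage-gated sodium channel pores of neurons, and both were well above background on all 6 arrays. Scn3a shares its chromosome with Aplnr and Lrrc55, with 130 named protein-coding genes lying between Scn3a and Aplnr.

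**Figure D3:**
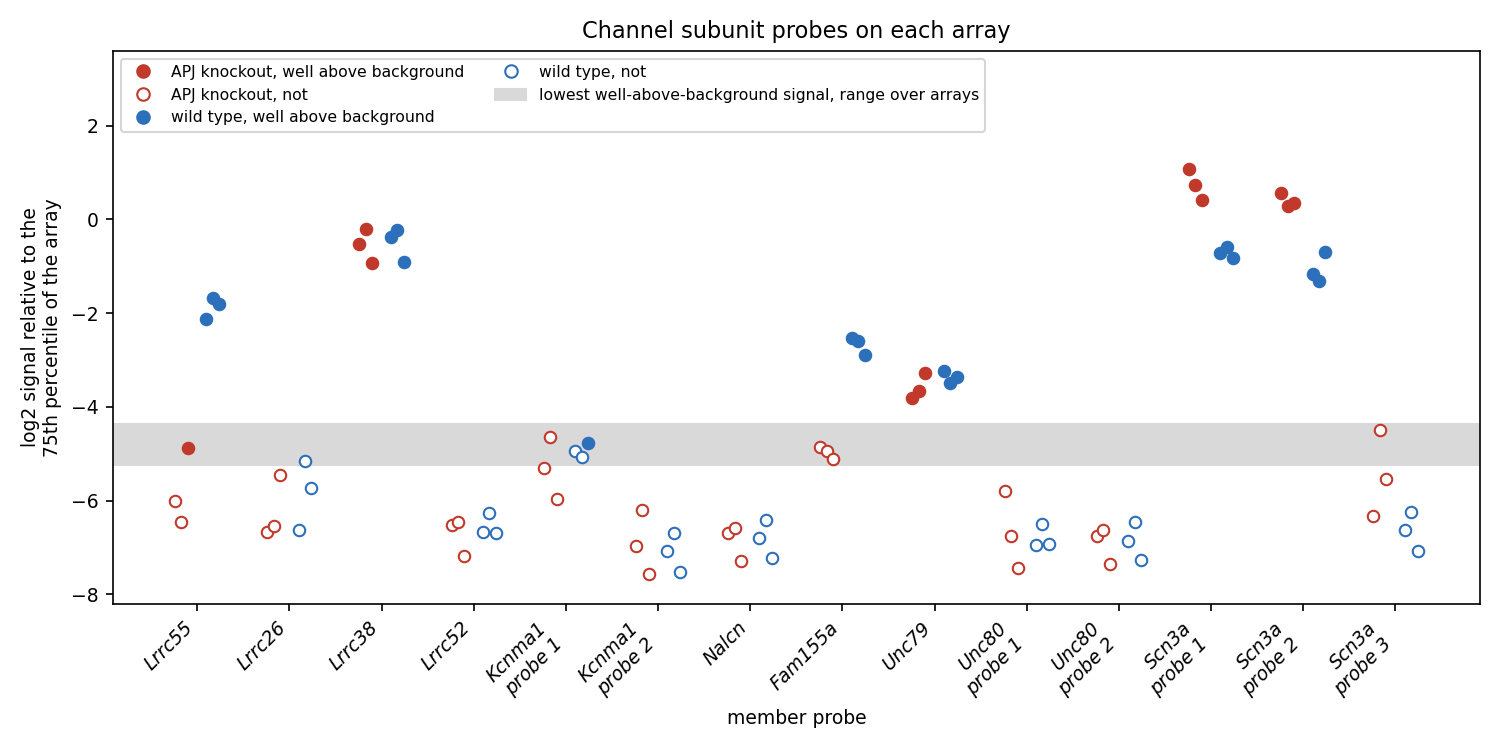
Log2 signal relative to the 75th percentile of the array (vertical axis) for the 14 probes of the 10 genes (horizontal axis), with 1 point per array, APJ knockout in red and wild type in blue. Filled points were well above background and open points were not, and the grey band spans the lowest well-above-background signal of the 6 arrays. Genotypes separate for Lrrc55, Fam155a and the 2 bright probes of Scn3a, and 7 probes are open on every array.

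Over the 14 probes, 4 were well above background on every knockout array and 6 on every wild-type array, where 49.8% and 49.3% of all probes were. Another 7 were not well above background on any array, as were 38.1% of all probes, and their signals spanned -7.57 to -4.49. After the filter on low signal 5 of the 10 genes were tested, and 3 passed, where 0.553% of everything tested did. Of these, 2 passed as lower (Lrrc55 and Fam155a), where 0.186% of everything tested did, and 1 passed as higher (Scn3a), where 0.367% did. The same 3 had arrays that did not overlap, as had 12.2% of everything tested. Because these genes were proposed with this comparison in view, nothing is read from those counts. Lrrc55 and Fam155a also entered the test only through wild type, the genotype in which they were higher. With the slide as a block the same 3 passed, where 1.18% of everything tested did (0.417% lower and 0.764% higher). With the replicate block only Fam155a passed, where 0.0206% of everything tested did (0.00413% lower and 0.0165% higher). With normexp Fam155a did not pass, where 69 of everything tested passed as higher and 41 as lower. Without a filter on low signal none of the 3 did, where 3 passed as higher and 0 as lower. Without APJ knockout replicate 1 or 2, or without wild type replicate 1, 2 or 3, again only Fam155a passed. Of everything tested, 11 to 45 passed as higher and 1 to 16 as lower in those fits. Without APJ knockout replicate 3 all 3 members passed, where 28 of everything tested passed as higher and 26 as lower.

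**Figure D4:**
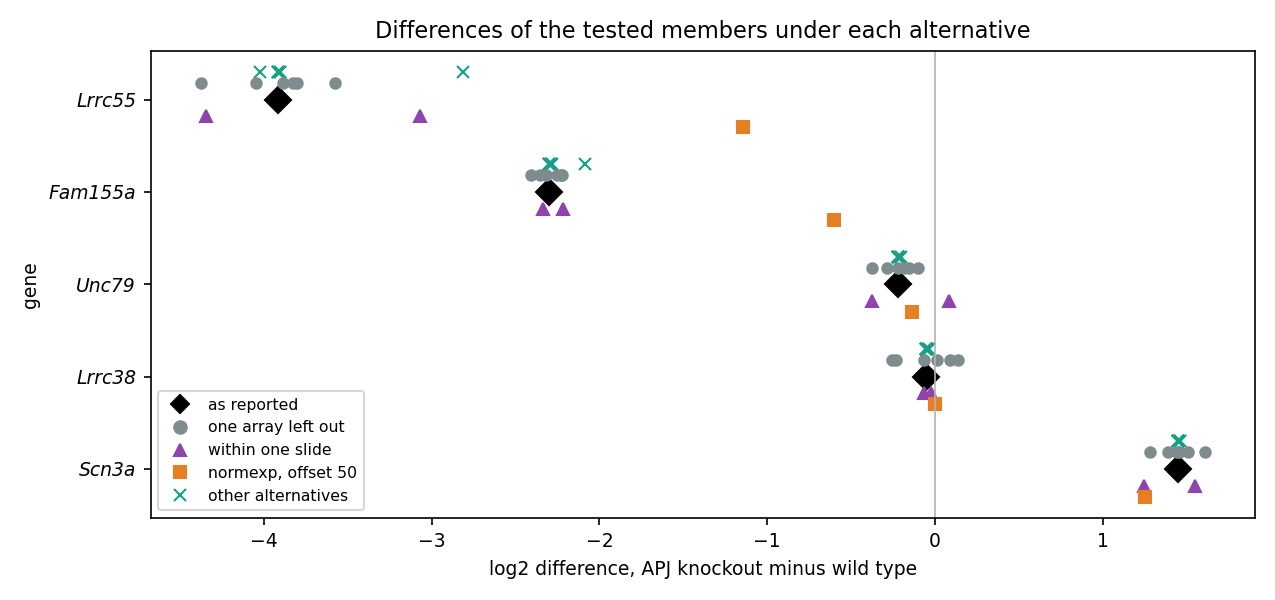
Log2 difference between APJ knockout and wild type (horizontal axis) for the 5 tested genes (vertical axis) as reported (diamond), with 1 array left out (circles), within each slide (triangles), with the normexp background correction (squares) and under the other alternatives (crosses). Lrrc55 and Fam155a stay below 0 and Scn3a above 0 at every point, and normexp brings Lrrc55 to -1.14 and Fam155a to -0.60.

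Markers of macrophages separated the genotypes as well. Of 6 measured, 6 were well above background on every knockout array and 2 on every wild-type array. Of these, 4 (Lyz2, C1qa, C1qc and Aif1) were higher on each knockout array than on any wild-type array. Genotypes did not overlap, in either direction, for 12.2% of everything tested. Lyz2, C1qa and C1qc were well above background on 1, 2 and 2 wild-type arrays, so the size of their differences is not settled. Lyz2, which encodes lysozyme, read -2.92, -3.71 and -3.25 in the knockout, against -5.27, -5.54 and -4.57 in wild type. C1qa, a chain of complement C1q, read -2.68, -3.48 and -2.58 in the knockout, against -4.43, -5.36 and -4.34 in wild type. The differences of these 4 were 1.11 to 1.91, and none passed by limma (adjusted p 0.0730 to 0.253). Adgre1, an adhesion receptor of macrophages, overlapped in 1 pair of arrays, at 2.07 ± 0.71 (SE, limma adjusted p = 0.462). The summed signal of the list was 7.45 to 7.78 in the knockout and 6.78 to 10.3 in wild type, but most of it came from Csf1r, a growth factor receptor, at -0.23 ± 0.16. Without Csf1r the sum was 0.801 to 1.53 in the knockout and 0.304 to 0.633 in wild type, which did not overlap. The part of such cells in the differences of Lrrc55, Fam155a and Scn3a was not tested.

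Markers of other cell types that the sorted samples could hold were also read. Of 11 neuronal markers, 5 were well above background on every knockout array and 6 on every wild-type array. Their summed signal was 60.4 to 64.6 in the knockout and 57.8 to 64.4 in wild type, nearly all of it from Snap25 and Gap43, while Nefm and Syt1 were well above background on no array. Without Snap25 the sum was 32.4 to 33.5 in the knockout and 30.4 to 31.6 in wild type, which did not overlap. Most of that remainder was Gap43, at 0.12 ± 0.08 (SE, limma adjusted p = 0.958), while Uchl1 differed by -0.31 ± 0.09. Of 8 Schwann cell and neural crest markers, 2 were well above background on all arrays of both genotypes and 4 on none, with sums of 0.474 to 0.586 in the knockout and 0.579 to 0.585 in wild type. Mural cell markers summed to 2.74 to 3.23 in the knockout and 2.63 to 3.54 in wild type, with 5 of 8 well above background on every array of each genotype. Skeletal muscle markers summed to 2.68 to 3.54 in the knockout and 2.74 to 3.64 in wild type, with 1 of 6 well above background throughout. The full sums of these lists, and of the keratinocyte, fibroblast and melanocyte lists that follow, overlapped between genotypes. Keratinocyte markers summed to 9.94 to 10.6 in the knockout and 10.03 to 30.3 in wild type, 6 of 8 being well above background on every knockout array and 5 on every wild-type array. In wild type replicates 1 to 3 this sum was 10.03, 15.5 and 30.3. Without Trp63, the brightest of the list, it was 1.44 to 2.96 in the knockout and 1.52 to 21.6 in wild type, which overlapped. Fibroblast markers summed to 0.868 to 2.18 in the knockout and 1.43 to 1.78 in wild type, 3 of 6 and 4 of 6, and melanocyte markers to 4.93 to 5.505 in the knockout and 4.997 to 5.96 in wild type, 3 of 6 in both. Among all these lists, single markers whose arrays did not overlap, as for 12.2% of everything tested, were Gap43 (higher in the knockout), Uchl1, Sox10 and Sfn (lower). None of these markers passed by limma (adjusted p 0.281 to 0.993). Their part in the 3 differences was likewise not tested.

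Related channel genes outside the 10 mostly did not pass. Of 42 listed, 39 had a named probe and 26 were tested, 1 passing as higher and 0 as lower by limma. Of everything tested, 0.367% passed as higher and 0.186% as lower. At an unadjusted limma p under 0.05 there were 5 higher and 1 lower. The share of everything tested under that threshold was not counted, so no direction is read from these. The median log2 difference of the 26 was 0.04, against -0.02 over everything tested. With the slide as a block 3 passed as higher, Kcne3 and Fgf12 among them, where 0.764% of everything tested passed as higher. The gene past the threshold without a block was Kcne3, an auxiliary subunit of voltage-gated potassium channels, which read 4.87, 4.69 and 4.72 in the knockout, against 3.16, 3.45 and 3.42 in wild type. Its difference was 1.42 ± 0.11 (SE, limma adjusted p = 0.0121), and the genotypes did not overlap. It did not pass with same-numbered samples paired (limma adjusted p = 0.0786), without APJ knockout replicate 1 (0.0744) or 2 (0.0586) or without wild type replicate 2 (0.0648).

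Other BK and calcium-activated potassium channel genes gave no call. Of 4 BK beta subunit genes 1, Kcnmb4, was tested. It read 0.83, 1.02 and 1.23 in the knockout and 1.19, 1.08 and 1.35 in wild type, a difference of -0.18 ± 0.13 (SE, limma adjusted p = 0.996). Of 7 other calcium- or sodium-activated potassium channel genes 2 were tested, both of them channels known from endothelium. Kcnn4, the intermediate-conductance channel, read -3.23, -3.25 and -2.73 in the knockout, against -2.62, -2.21 and -2.23 in wild type, a difference of -0.71 ± 0.19 (SE, limma adjusted p = 0.256). Kcnn3, a small-conductance channel, differed by 0.15 ± 0.09 (limma adjusted p = 0.888).

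Sodium channel pores other than Scn3a gave 0 calls over 6 tested of 9 listed. Scn11a, of sensory neurons, differed by -0.12 ± 0.14 (SE, limma adjusted p = 1.00). Of 4 beta subunits 2 were tested with 0 calls, Scn4b at -0.02 ± 0.20 (limma adjusted p = 1.00). All 4 intracellular FGF genes, whose proteins bind the tail of sodium channels, were tested. Fgf12 read -2.83, -2.71 and -3.17 in the knockout, against -3.56, -3.91 and -3.89 in wild type, a difference of 0.88 ± 0.16 (SE, limma adjusted p = 0.0984), which passed when the slide was a block (0.0477). It did not pass with the replicate block (limma adjusted p = 0.119) or after quantile normalization (0.135). Normexp brought the difference to 0.31 ± 0.16, which did not pass either. Fgf13 differed by 0.35 ± 0.15 and Fgf14 by -0.04 ± 0.10, without passing. Among 10 tested of 13 other cation channels, 9 were above 0, with differences from -0.01 to 1.42 and a median of 0.15. The share of everything tested that lay above 0 was not counted, so no direction is read from this list. Trpc6, a calcium-permeable channel opened by diacylglycerol, read -0.21, 0.14 and -0.26 in the knockout, against -0.88, -0.99 and -0.86 in wild type. Its difference was 0.80 ± 0.13 (SE, limma adjusted p = 0.0703).

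**Figure D5:**
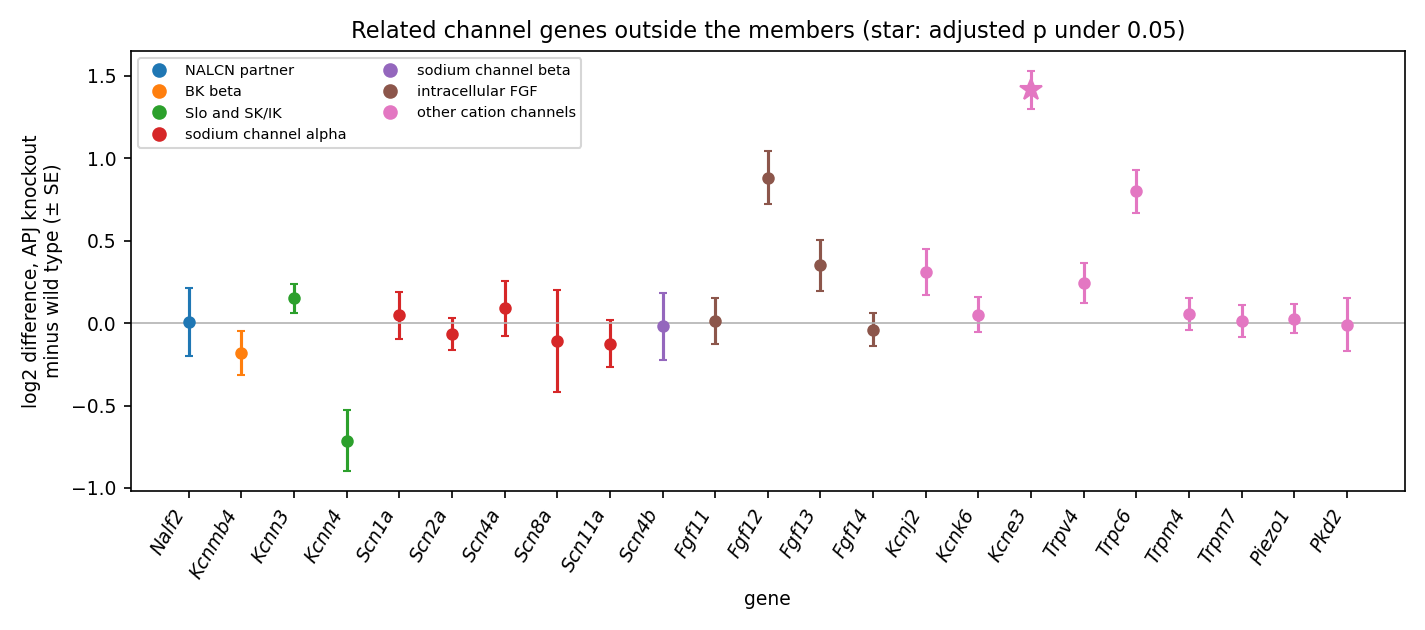
Log2 difference between APJ knockout and wild type (± SE, vertical axis) for tested channel genes outside the 10 (horizontal axis), coloured by list. The star marks Kcne3 at 1.42, which passed at an adjusted p of 0.05, and the sodium channel pores shown lie between -0.12 and 0.09.

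The genes with profiles closest to those of the lowered members were found among 12737 other named genes well above background on all wild-type arrays. Likeness was the mean absolute difference over the 6 arrays between log2 profiles, each centred on its own mean. For Fam155a the closest were Trim12a, of the TRIM family (0.161), Kank1, an adaptor at cell adhesions (0.217), and Madcam1, an addressin (0.289). Trim12a read -0.92, -1.27 and -1.47 in the knockout, against 0.88, 0.74 and 0.77 in wild type. For Lrrc55 the closest were Sfrp1, a secreted Wnt inhibitor (0.643), Fam155a (0.893) and Zic2, a zinc finger transcription factor (0.913). Sfrp1 read -6.41, -5.49 and -4.91 in the knockout, against -2.54, -2.97 and -3.34 in wild type. In knockout replicates 1 and 2 it lay below the lowest well-above-background signal of the array (-4.63 and -4.53), so its drop has no settled size. This measure is dominated by the step between genotypes, so any gene with a drop of like size comes close. Candidates had to be detected in wild type only, the genotype in which both members were higher.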

How the data were processed

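Each deposited scanner file lists linear Cy3 intensity by spot, and the column used was background-subtracted and detrended by Feature Extraction 10.7.3.1 from Agilent, per the file headers. In the authors' value table that intensity is multiplied by a constant of 2.29 to 3.69, by array, of unstated origin. Per the labels' protocols, 0.1 µg of RNA was labelled.

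Between 126 and 179 outlier spots per array were left out of 59305, and no spot was saturated. Intensities were taken to log2, each array's 75th percentile was subtracted and repeated spots were averaged. Testing was limited to probes well above background on every array of at least 1 genotype. The brightest probe of each symbol and every probe without a symbol were kept. This left 24221 of 55681 probes, 13443 of them with a symbol, and shares of everything tested cover both kinds. Symbols came from RefSeq accessions (GRCm38.p6) and covered 47.4% of probes. The array's coordinates follow another build, so that table gave names, chromosomes and gene order only. Nalf2 was matched through its older name, Fam155b.

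Differences are APJ knockout minus wild type, fitted with limma 3.58.1 in R 4.3.3 (lmFit, eBayes, genotype as the only term), two-sided, with Benjamini-Hochberg adjustment over everything tested and a threshold of 0.05. The procedure was tested on simulated data. Precision is limited by having 3 arrays in each genotype. Same-numbered arrays deviated together from their group means (r = 0.233, 0.152 and 0.649 for numbers 1 to 3), so a fit with the numbers as pairs was added. Its result is given where it changes a call, and each SE printed comes from the fit without pairs. Arrays of different number on slide 1 also deviated together (r = 0.358 and 0.279), and the labels state no pairing.

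The members, gene lists and tests were chosen with earlier results of these data known. Named genes were every member, Aplnr, every related or neighbouring gene past the threshold, the 3 with the lowest raw p in every list, and the 3 closest profiles; some of these are not reported here. Scn1a, Ssrp1, Prg2, Efnb2 and Col4a1 were added for their position or family, after their values were seen, as were the single cell type markers and the sums without the brightest marker. The lowest well-above-background signal was taken over single spots.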

Additional observations from a re-analysis of the deposited data

How the results depend on the processing

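The signs for Lrrc55, Fam155a and Scn3a held under all alternatives run, with differences of -4.38 to -1.14, -2.41 to -0.60 and 1.25 to 1.61. Lrrc55 and Fam155a were -1.14 and -0.60 after normexp with an offset of 50, where Fam155a no longer passed, and -2.81 and -2.09 with dim spots raised to the lowest well-above-background signal, both chosen after seeing the data. An offset adds a constant to dim signals and so shrinks their differences by construction. Lrrc38 lay between -0.26 and 0.14 and Unc79 between -0.37 and 0.08. Normexp used the median spot signal, because the files hold no mean signal and the planned form was not run. Without a filter, over 49224 features, 3 genes passed as higher and 0 as lower (1049 were lower at an unadjusted p under 0.05), with 0 related channel genes and 0 of the 10 members. The cause was not tested. With the slide as a block 185 were higher and 101 lower, with 3 related genes higher. With the replicate block 4 were higher and 1 lower, against 89 and 45 without it, with 0 related genes higher. With 1 array left out, 11 to 45 were higher, 1 to 26 lower and 0 to 1 related genes higher. Normexp gave 2 related genes higher. Lrrc55 and Fam155a had no value when only probes well above background on all arrays were tested. Of the 14 probes, 7 were not well above background on any array, so their differences have no usable size.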
